A study of Drosophila melanogaster with 8 samples.

Results

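Wingless (Wg) and the other Wnt proteins of the fly are secreted ligands that signal through receptors of the Frizzled family. In their absence a complex that includes the kinase Shaggy (*sgg*, the fly glycogen synthase kinase) phosphorylates Armadillo (*arm*, the fly beta-catenin) and marks it for destruction. When a Wnt binds its receptor, Armadillo escapes destruction and works with the transcription factor Pangolin on target genes, some of which, such as *nkd*, *Notum* and *fz3*, feed back on the pathway. Wnt signaling patterns the embryo and the imaginal discs, and in adults it helps to maintain stem cells of the gut and the ovary.

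The genes described here are 10 members of this pathway, namely the ligands *wg*, *Wnt4* and *Wnt10*, the secreted inhibitor *Notum*, the receptors *fz*, *fz3* and *Drl-2*, the transducers *arm* and *sgg*, and the feedback inhibitor *nkd*. They were taken by name from the deposited lists of dFOXO regions, which hold 2801 genes in all. The *chico* list held 5 of the 10 members among 2042 genes, and the list for flies with ablated insulin-producing cells (IPCs) held 7 among 1012 genes. Only *wg* and *Drl-2* were in both lists. Each member had 1 region per list, and the rows used here paired no other gene with these 12 regions.

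dFOXO is the fly FOXO transcription factor, which enters the nucleus when insulin signaling is low. Its binding was measured by chromatin immunoprecipitation and sequencing (ChIP-Seq) with an anti-dFOXO antibody in whole adult females at 15 days of age, from 2 genotypes that the study describes as long-lived. The first were heterozygous mutants of *chico*, the gene for the insulin receptor substrate (*chico* -/+). In the second the adult IPCs were partially ablated, with the inducible driver *Dilp2-GeneSwitch-gal4* expressing the cell death gene *reaper* in the cells that make Dilp2. The study induced the ablation by feeding these flies the drug mifepristone for 15 days, and describes no such feeding for the *chico* flies. Each genotype had 2 ChIP samples and 2 samples of input DNA, which is chromatin taken before the precipitation, for 8 samples in all. The 8 samples include no wildtype library, so all values are ChIP over input within a genotype. As whole flies were used, binding cannot be assigned to a tissue.

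The authors pooled the replicates of each genotype before they called regions. A region therefore has 1 number of ChIP tags and 1 number of input tags per genotype, the latter scaled by the authors by chromosome arm, and no spread between replicates can be given. The enrichment is ChIP tags over scaled input tags. Its 95% intervals (exact, Clopper-Pearson) and the p-values of the exact one-sided binomial test cover counting error in the pooled libraries only. The regions had been listed for an excess of ChIP over input in these same tags. The lowest enrichment was 1.07 in the *chico* list and 1.0002 in the list for IPC ablation. Neither the intervals nor the p-values correct for that selection. A region passed when its p, adjusted by the Benjamini-Hochberg method, was 0.01 or less. The adjustment ran over 26819 candidate regions in *chico* and over the 763 listed regions after IPC ablation. The 1331 *chico* regions held 1012591 ChIP tags and the 763 regions after IPC ablation held 2305347. Coordinates are those of the authors' lists, whose genome build is not given in the sources used here, and the lists place a region inside, 5' or 3' of a gene without naming exons or introns.

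Of the 10 members, *wg* alone was among the genes with ChIP-PCR primers in the study. By ChIP-PCR the study reports significantly more dFOXO at all its selected candidate genes, *wg* among them, in both mutants than in wildtype. That comparison with wildtype cannot be made with the sequenced libraries. The primer pair is shown because it marks the stretch of *wg* (chromosome arm 2L) that was assayed apart from sequencing, each from its 5' end. The primers were not placed on the genome here, so their distance from the regions below is not given.
forward primer: tgctggctatataccgcacacaca
reverse primer: tatatggcgcggtgatcgttcgtt

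None of the 12 Wnt gene regions passed the adjusted exact binomial test with the input as the authors scaled it. The study itself had called all 12 as enriched with the program PeakSeq, and the authors' p-values were exactly 0 for each. The exact test thus differed from the study's own call at all 12 regions, and the reason was not tested. The result of the exact test depended on the scaling. With scaled input tags 5% lower, *sgg* in *chico* and *wg* and *fz* after IPC ablation passed. At that setting 142 of all 1331 *chico* regions and 315 of all 763 regions after IPC ablation passed. In *chico* 0 of 5 passed, against 2.70% of all *chico* regions, and after IPC ablation 0 of 7 passed, against 0.655% of all regions in that list. Before adjustment, the exact p was under 0.05 at 3 of the 5 *chico* regions (*wg*, *Drl-2* and *sgg*), a share near the 61.4% of all *chico* regions. After IPC ablation it was under 0.05 at 0 of the 7, against 14.8% of all regions. The median enrichment of the member regions was 1.09 in *chico* (range 1.07 to 1.18), beside a median of 1.103 over all *chico* regions. After IPC ablation it was 1.02 (range 1.00 to 1.07), beside 1.02 over all regions. Above the median of the list were 2 of the 5 members in *chico* and 2 of the 7 after IPC ablation.

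**Figure D1:**
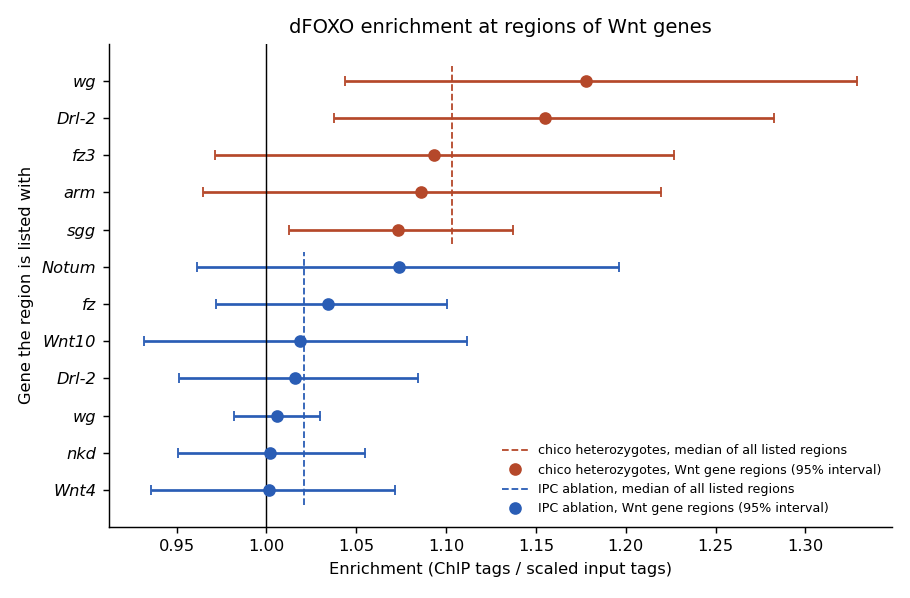
Enrichment (ChIP tags over scaled input tags, x axis) at each of the 12 regions, named by gene, with 95% exact binomial intervals. Red points are *chico* regions and blue points are regions after IPC ablation, and the dashed lines are the medians of all listed regions (1.103 and 1.02). The intervals of *wg*, *Drl-2* and *sgg* in *chico* lie above 1, while those of all 7 regions after IPC ablation include 1. All 12 regions had been listed for an excess of ChIP over input, for which the intervals do not correct.

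The ligand gene *wg* (FBgn0004009) lies on 2L from 7307161 to 7316255 on the plus strand. Its *chico* region, from 7318274 to 7319492, lay 3' of the gene, 2019 bp beyond the gene's end, with its centre at a listed distance of 2628 bp. The region was 1219 bp wide and held 591 ChIP tags and 502 scaled input tags. This was an enrichment of 1.18 (interval 1.04 to 1.33), the largest among the 5 *chico* members and above 91.6% of all *chico* regions. The exact one-sided binomial p was 0.00387 before adjustment and 0.549 after it.

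After IPC ablation the region listed with *wg* was 47270 bp wide, from 7268485 to 7315754. It covered the 5' end of the gene and 94.5% of its length, but 18.2% of the region lay in the gene and the rest upstream. Its listed centre was 174 bp inside the gene, while the midpoint of the region lay upstream of the 5' end. The region held 13510 ChIP tags and 13435 scaled input tags, which gave an enrichment of 1.01 (interval 0.982 to 1.03, with p = 0.326 in the exact binomial test). With so many tags an enrichment of 1.02 would have reached an exact p under 0.05, and the observed value was below it. With scaled input tags 5% lower, the adjusted p of the exact test was 2.65e-05 in place of 0.5. At that setting 315 of all 763 regions in the list passed. The *chico* region began 2519 bp beyond the end of this wide region, so that the regions of *wg* in the 2 lists did not overlap.

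The genes *Wnt4*, *wg* and *Wnt10* are neighbours on 2L. In the Release 6 gene table the order of genes is *Wnt4*, *CG31909*, *wg*, a long noncoding RNA gene, *Wnt6* and *Wnt10*, and no row of *Wnt6* was found in the lists used here. After IPC ablation the regions listed with *Wnt4*, *wg* and *Wnt10* stood within 105.2 kb, so they are not separate parts of the genome in the way the other members are. The wide region at *wg* also covered the 5' end of *Wnt4* and 8684 bp of that gene, although the list pairs it with *wg* alone.

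*Wnt4* (FBgn0010453; 2L, 7255460 to 7277168, minus strand) encodes another Wnt ligand, known for its part in cell movement in the ovary. Its region after IPC ablation, from 7258496 to 7264357, lay in the 3' side of the gene and took up 27.0% of it. With 1698 ChIP and 1696 scaled input tags, the enrichment of 1.00 (interval 0.935 to 1.07) was the lowest of the 12 regions, and 3.01% of the regions in the list were lower. At this depth an enrichment under 1.06 could not have reached an exact p under 0.05.

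*Wnt10* (FBgn0031903; 2L, 7369540 to 7377530, plus strand) is also a Wnt ligand gene. The region listed with it after IPC ablation, from 7360733 to 7363681, was 2949 bp wide and ended 5859 bp before the 5' end of the gene. Its listed distance of 6493 bp, the largest among the members, exceeds the 5 kb that the study's methods give for target genes. This is not particular to *Wnt10*, since 902 of all 1012 gene rows in that list were within 5 kb. The region held 1019 ChIP and 1001 scaled input tags, which gave an enrichment of 1.02 (interval 0.932 to 1.11, with p = 0.353 in the exact binomial test). In *chico* the nearest listed region began 2587 bp beyond the 3' end of *Wnt10*, inside *ninaC* and listed with it, with an enrichment of 1.12 (interval 1.01 to 1.25).

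**Figure D2:**
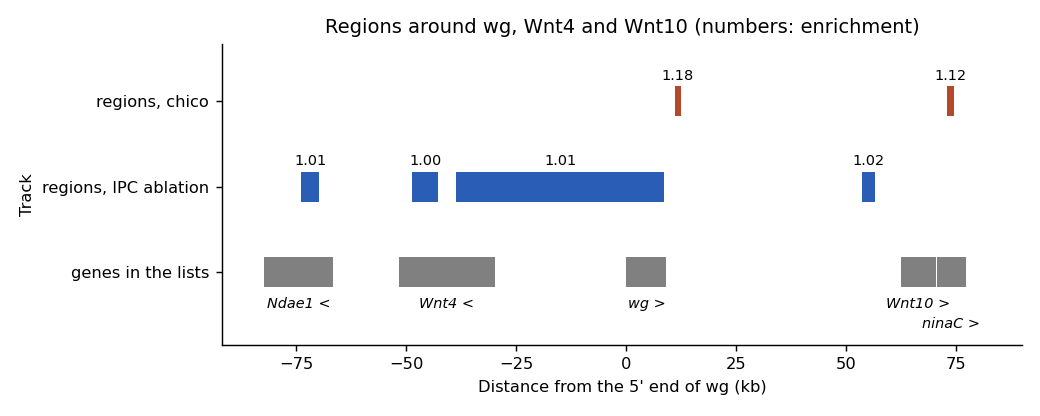
Regions in the 2 lists and the listed genes around *wg*, as distance from the 5' end of *wg* in kb, with arrows for the direction of transcription and the enrichment printed above each region. The *chico* region 3' of *wg* (1.18) stands outside the wide region after IPC ablation (1.01), which also reaches into *Wnt4*.

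*Notum* (FBgn0044028; 3L, 16016580 to 16025861, plus strand) encodes a secreted enzyme that inactivates Wnt ligands by removing their lipid. It was listed after IPC ablation alone, with a region 5' of the gene from 16013684 to 16015752, which ended 828 bp before the gene. The region was the narrowest of the 7 after IPC ablation, at 2069 bp, and had the fewest tags, with 683 ChIP and 637 scaled input tags. The enrichment of 1.07 (interval 0.961 to 1.20) was the largest of these 7 and above 93.2% of all regions in the list. An excess over input was still not detectable at this depth (exact one-sided binomial p = 0.108, and 0.449 after adjustment), since the smallest enrichment with an exact p under 0.05 was 1.099.

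The receptor genes were listed at different parts of their sequence. *fz* (FBgn0001085; 3L, 14267447 to 14361748, plus strand) encodes Frizzled, which acts as a receptor for Wg and in planar cell polarity. At 94.3 kb it was the longest member, and its region after IPC ablation, from 14310198 to 14317698, lay deep inside the gene, centred 47791 bp downstream of its start. This region held 2052 ChIP and 1984 scaled input tags, which gave an enrichment of 1.03 (interval 0.972 to 1.101, with p = 0.146 in the exact binomial test).

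*fz3* (FBgn0027343; X, 664061 to 677344, plus strand) encodes a further Frizzled protein, whose transcription responds to Wg. Its *chico* region, from 663631 to 664747, was the only *chico* member region that covered the 5' end of its gene, with its centre 128 bp inside the gene. It held 608 ChIP and 557 scaled input tags, which gave an enrichment of 1.09 (interval 0.971 to 1.23, with p = 0.0715 in the exact binomial test). Tag density there was the highest of the 5 *chico* member regions, at 544.3 ChIP tags and 498.7 scaled input tags per kb. Over all *chico* regions the medians were 488.4 and 441.5 per kb and the maxima 1116 and 990.4. ChIP and input at *fz3* were thus both above the median of the list.

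*Drl-2* (FBgn0033791; 2R, 8944081 to 8967043, minus strand) encodes Derailed 2, of the Ryk family of atypical receptor tyrosine kinases that serve as Wnt receptors in the nervous system. Its *chico* region, from 8944273 to 8945937, lay near the 3' end of the gene, centred 21938 bp downstream of its start. It held 759 ChIP and 658 scaled input tags, which gave an enrichment of 1.16 (interval 1.04 to 1.28) that was above 85.5% of all *chico* regions. The exact one-sided binomial p was 0.00394, and 0.549 after adjustment. After IPC ablation the region at *Drl-2*, from 8961524 to 8967869, was at the other end of the gene and covered its 5' end, with a centre 328 bp inside the gene. It held 1836 ChIP and 1808 scaled input tags, which gave an enrichment of 1.02 (interval 0.951 to 1.08, with p = 0.327 in the exact binomial test).

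At *wg* and *Drl-2* the lists thus had the same arrangement, with the *chico* region at or beyond the 3' end and the region after IPC ablation over the 5' end. *dally*, a Wnt pathway gene in both lists but not among the members, did not share it. Its *chico* region covered the 5' end, and its region after IPC ablation lay 7060 to 12313 bp inside the gene. Over all listed genes, the region covered the 5' end in 16.9% of *chico* rows and 50.6% of rows after IPC ablation. Among the members it did so for 1 of 5 in *chico* and 2 of 7 after IPC ablation. The regions of *Drl-2* were 15586 bp apart and those of *wg* 2519 bp apart. How often regions overlap over all genes in both lists is not given here. The intervals of enrichment did not overlap between genotypes at *wg* but did at *Drl-2*. Enrichment differed between the lists as a whole. The lowest value of all *chico* regions was 1.07, and the median of all regions after IPC ablation was 1.02. How often the intervals separate over all genes in both lists is not given here. The difference between genotypes was not tested at either gene, since the regions, their widths and the scaling of the input differ.

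**Figure D3:**
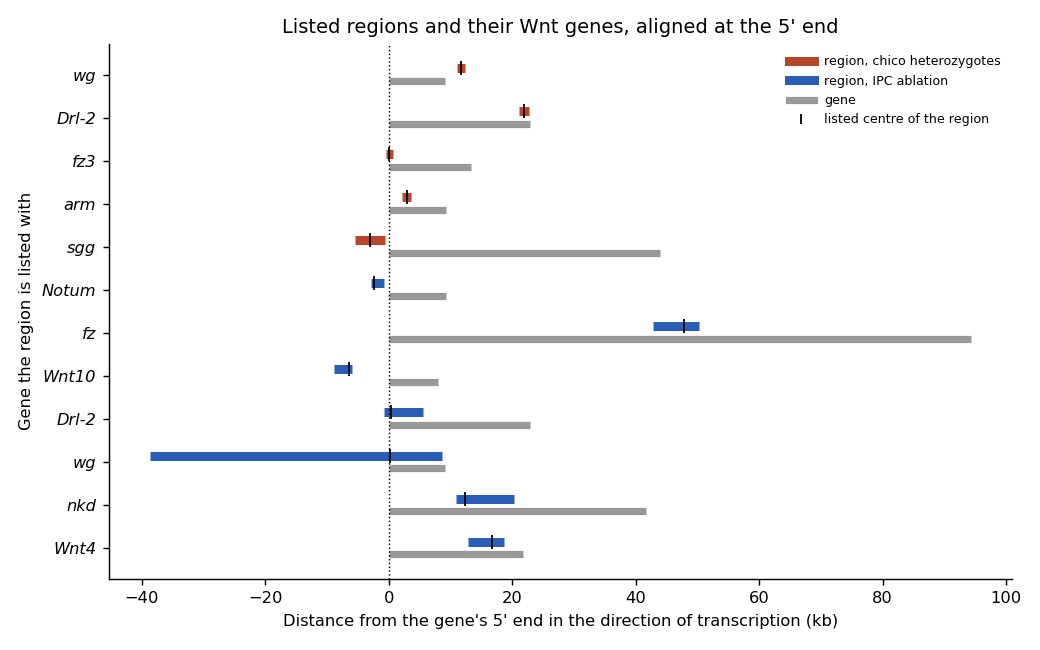
Position of each listed region (coloured bar) relative to its gene (grey bar), as distance from the 5' end of the gene in kb in the direction of transcription, with the listed centre as a black tick. Red regions are from *chico* and blue regions from IPC ablation. Regions at *fz3* in *chico* and at *wg* and *Drl-2* after IPC ablation cover the 5' end, and the region at *fz* has its centre 47791 bp into the gene.

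The transducer genes *arm* and *sgg*, both on X, were listed in *chico* alone. *arm* (FBgn0000117; X, 1785434 to 1794673, minus strand) had its region from 1791043 to 1792437, in the 5' part of the gene, centred 2933 bp downstream of its start. It held 601 ChIP and 554 scaled input tags, which gave an enrichment of 1.09 (interval 0.965 to 1.22, with p = 0.0879 in the exact binomial test).

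The region listed with *sgg* (FBgn0003371; X, 2527983 to 2571879, plus strand) lay 5' of the gene, from 2522495 to 2527408, and ended 575 bp before its 5' end. The list numbers *sgg* as the second gene for this region, and no first gene for it was among the rows used here. At 4914 bp it was the widest of the 5 *chico* member regions, and it held 2396 ChIP and 2233 scaled input tags. Its enrichment of 1.07 (interval 1.01 to 1.14) was the lowest of the 5 and above 7.06% of all *chico* regions, and its exact one-sided binomial p was 0.00863. It had the most tags of the 5 *chico* member regions. After adjustment the p was 0.745, and with scaled input tags 5% lower it was 0.00575 in the same exact test. At that setting 142 of all 1331 *chico* regions passed. A further *chico* region, listed with *HLH3B*, began 2582 bp beyond the 3' end of *sgg*, with an enrichment of 1.08 (interval 0.968 to 1.20).

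*nkd* (FBgn0002945; 3L, 18996832 to 19038431, minus strand) encodes Naked cuticle, which binds Dishevelled and dampens Wg signaling in cells that receive it. Its region after IPC ablation, from 19018196 to 19027464, lay wholly inside the gene and had 2882 ChIP tags and 2878 scaled input tags. The enrichment was 1.00 (interval 0.951 to 1.05, with p = 0.484 in the exact binomial test). The *chico* list had a region inside *nkd* too, from 18997964 to 18999055 near the 3' end, which it pairs with *CG18135* and *CG18136* and not with *nkd*. This region had 598 ChIP and 528 scaled input tags, which gave an enrichment of 1.13 (interval 1.01 to 1.28, with p = 0.0199 in the exact binomial test and 1 after adjustment).

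**Figure D4:**
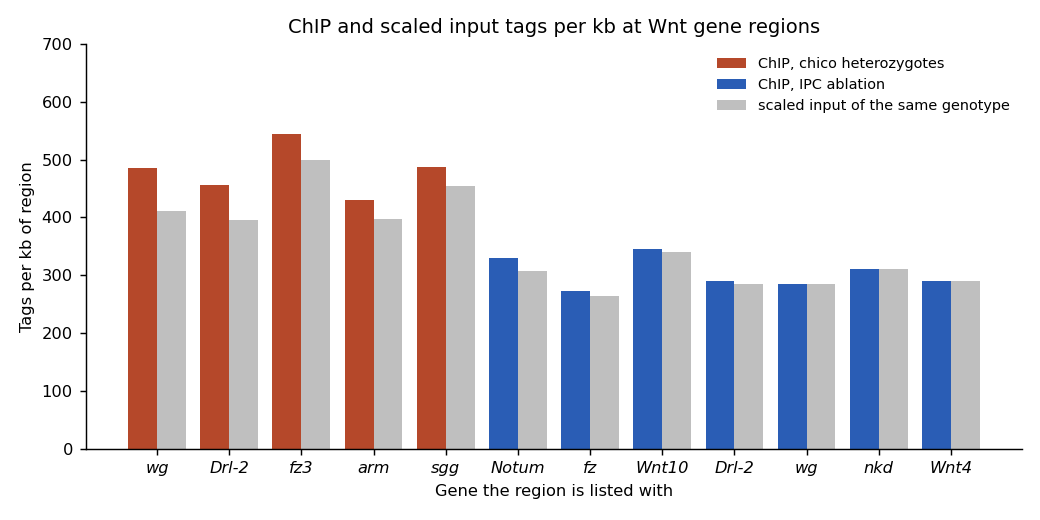
ChIP tags (coloured bars) and scaled input tags (grey bars) per kb of each region, in the order of the enrichment plot, with red for *chico* and blue for IPC ablation. ChIP tags ranged from 430.8 to 544.3 per kb in the 5 *chico* regions and from 273.6 to 345.5 per kb in the 7 regions after IPC ablation, and the input of each region stood close to its ChIP bar.

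Expressed as ChIP tags in excess of scaled input per kb, the 5 *chico* members ranged from 33.2 at *sgg* to 73.0 at *wg*, with a median of 45.7 beside 45.6 over all *chico* regions. After IPC ablation the 7 members ranged from 0.341 at *Wnt4* to 22.2 at *Notum*, with a median of 4.41 beside 6.24 over all regions in that list. At *wg* the excess was 73.0 tags per kb in *chico* and 1.59 after IPC ablation, and at *Drl-2* it was 60.7 and 4.41. These values are not on a common scale, since libraries and region widths differ between the lists. Member regions had a median width of 1395 bp in *chico* and 6346 bp after IPC ablation, beside 1395 bp and 6569 bp over all regions. The member genes were long, with a median length of 13284 bp in *chico* and 21709 bp after IPC ablation, beside 4521 bp and 7994.5 bp over all listed genes.

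**Figure D5:**
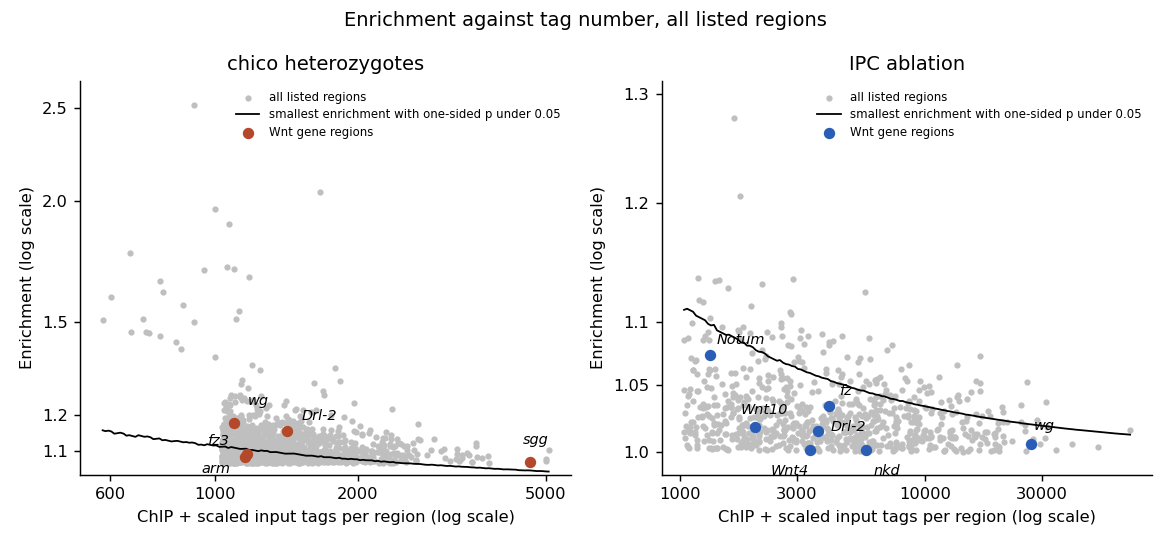
Enrichment (log scale) against the sum of ChIP and scaled input tags per region (log scale) in *chico* (left) and after IPC ablation (right), with all listed regions in grey and the Wnt gene regions in colour. The black line is the enrichment needed for an exact one-sided p under 0.05, and *wg*, *Drl-2* and *sgg* in *chico* are the Wnt gene regions above it.

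The 10 members were read beside a wider list of 46 genes of the pathway that includes them. Of these 46 genes, 9 (19.6%) had a row in *chico*, beside 14.3% of protein-coding genes, and 10 (21.7%) had a row after IPC ablation, beside 6.85%. In both lists were 3 genes (6.52%), beside 1.81% of protein-coding genes. The members are in these counts and were named because they were listed, and neighbouring genes can enter together, so the shares are a description only. Of the 36 genes that are not among the 10, 4 (11.1%) had a row in *chico* and 3 (8.33%) after IPC ablation, near the shares of protein-coding genes. By role, 3 of 7 ligands were listed after IPC ablation and 1 in *chico*, and 3 of 11 receptors and co-receptors were listed in each genotype. None of the 6 nuclear effectors, Pangolin (*pan*) among them, had a row in either list.

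The listed genes of the wider list that are not among the 10 were *dally*, *dlp*, *dnt* and *stan* in *chico* and *dally*, *otk* and *pk* after IPC ablation. *dally* and *dlp* encode glypicans, cell-surface proteoglycans that bind Wg and shape its spread. The *chico* region at *dally* (3L, 8820314 to 8820828) covered the 5' end of the gene and was the only region of the 9 to pass. It held 369 ChIP and 232 scaled input tags, which gave an enrichment of 1.59 (interval 1.35 to 1.88, p = 1.9e-05 from the adjusted exact binomial test). After IPC ablation the region at *dally* lay 7060 to 12313 bp inside the gene, with an enrichment of 1.01 (interval 0.938 to 1.08), and was also listed with *CG32026*. The *chico* enrichments were 1.15 at *dlp*, in a region also listed with *ome*, 1.14 at *dnt*, a Ryk family gene like *Drl-2*, and 1.14 at *stan*, the planar polarity cadherin. Before adjustment the exact p was under 0.05 for 7 of the 9 *chico* genes of the wider list, beside 61.4% of all *chico* regions, and for 0 of the 10 after IPC ablation, beside 14.8%. At *pk*, a planar polarity gene, and *otk*, a co-receptor gene, the enrichments after IPC ablation were 1.04 and 1.02, the region at *otk* being listed with *pds5* and *CG8964* as well.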

How the data were processed

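Pooled ChIP and input libraries of *chico* heterozygotes and IPC-ablated flies were analysed as the authors' lists of regions with nearby genes. The authors pooled the replicates' reads, aligned them with Bowtie and called regions with PeakSeq, and CASAVA 1.6 is in the submitters' processing notes. The deposited ChIP tags are counts per region. The deposited input tags are a score, scaled down by the authors with a factor that differed by chromosome arm (0.850 to 0.881 in *chico* and 0.678 to 0.752 after IPC ablation, recovered from the values, chromosome 4 not estimated) and taken up to the next whole number. The deposited enrichment column holds the ratio of ChIP tags to scaled input before that rounding. The authors' p-values were exactly 0 for all 12 member regions and were used only to derive the number of *chico* candidate regions (26819), over which *chico* p-values were adjusted. For IPC ablation the adjustment ran over the 763 regions in the list, which is more lenient.

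A region with several genes entered once. Its tags were compared by the exact one-sided binomial test, run on every region of a list, and checked on simulated data. The depth of each sample was not analysed here, so precision follows from the tags of each region, and intervals cover counting error only. Intervals and p-values do not correct for the selection of the regions by the same tags. PCR duplicates were not assessed. Both lists gave identical coordinates for all 253 genes they share. Names, gene order and the share of 13962 protein-coding genes (2003 matched in *chico* and 957 after IPC ablation, by symbol or alias) used the Release 6 RefSeq gene table. The genes named are the 10 members, genes sharing their regions and listed genes of the wider list. The members and lists were chosen with earlier results of these data known. Regions within 5 kb of a member but listed with other genes, and *dally*, were singled out after their values were seen. Alternatives covered the input scaling, unscaled input, test side, adjustment, enrichment, distance, gene matching and overlap. Motif searches and further sequences need a genome and were left out. Tests ran in SciPy 1.17.1 under Python 3.11.15, with tables in pandas 2.3.3 and NumPy 2.4.6 and plots in Matplotlib 3.10.9.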

Additional observations from a re-analysis of the deposited data

How the results depend on the processing

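With scaled input tags lowered by 5%, 1 of the 5 *chico* member regions passed (*sgg*, exact adjusted p = 0.00575) and 5 had an unadjusted exact p under 0.05, as had all 1331 regions of the list. After IPC ablation 2 passed (*wg*, adjusted p = 2.65e-05, and *fz*, exact adjusted p = 0.0099) and 5 of 7 had an unadjusted p under 0.05, beside 584 of all 763 regions. Over the whole lists 142 and 315 regions then passed in place of 36 and 5, and with input raised by 5%, 24 and 0 passed. Adjusting over the other number of regions gave 85 passing regions in *chico* and 0 after IPC ablation, with 0 members among them. The two-sided test left 73 regions with an unadjusted p under 0.05 after IPC ablation in place of 113. A listed distance of up to 1 kb left 3 members in *chico*, 1 of them with an unadjusted p under 0.05, and 1 member, *Drl-2*, in both lists. An enrichment of at least 1.1 left 2 members in *chico* (*wg* and *Drl-2*), 0 after IPC ablation and 0 in both lists. Unscaled input reads, alias matching and a 5 kb limit moved no member count by over 1.5 times. The regions of *wg* and *Drl-2* did not overlap under any of the 3 criteria tried. Those of *dally*, also in both lists, shared no base either. The share of overlapping regions over all 253 genes in both lists is not given here, so non-overlap is not shown to be particular to these genes. No paired analysis was possible because the lists pool the replicates, and leaving out a replicate was not run for the same reason.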
